A study of Homo sapiens with 6 samples.

Results

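The nuclear long non-coding RNAs MALAT1, NEAT1 and MEG3, the snoRNA host transcripts GAS5, SNHG1, SNHG5 and SNHG12, and the paraspeckle proteins SFPQ, NONO and PSPC1 were followed across 6 arrays of a human kidney cell line. The 10 genes were chosen by name, with earlier results of these data known. Every probe set whose platform annotation names one of them was taken, 54 of 54675. Of these, 36 carry a single symbol, which is MALAT1 (12 probe sets), MEG3 (10), SFPQ (5), PSPC1 (5), NONO (3) or GAS5 (1). Another 17 carry the symbol of a host gene together with those of the small RNAs inside it, and they are called jointly annotated here because the annotation does not assign their signal to the host alone. They are 8 for NEAT1 and the microRNA gene MIR612, 4 for GAS5, 3 for SNHG12, 1 for SNHG1 and 1 for SNHG5, the last 4 hosts being listed with their small nucleolar RNAs (snoRNAs). The last probe set is labelled NEAT1 and MIR612, but its accession belongs to SPRY4 in the RefSeq gene table, so it was not counted.

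The cells had been transfected with a construct labelled hIMP1 wt, with one labelled hIMP1 Dmut, or with an empty vector (mock). IMP1 is encoded by IGF2BP1 and binds mRNAs in cytoplasmic granules. The labels name neither the cell line nor what Dmut stands for, and no time after transfection is given in the sources used here. Total RNA from each sample was read on its own 1-colour array, 2 arrays for each of the 3 constructs, and the sample titles number the arrays of a construct 1 and 2.

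MALAT1 and NEAT1 stay in the nucleus. MALAT1 collects in nuclear speckles, bodies rich in splicing factors, while NEAT1 is the scaffold of paraspeckles, which do not form without it. SFPQ, NONO and PSPC1 are related RNA-binding proteins that pair with each other and sit on NEAT1 in paraspeckles. MEG3 is an imprinted RNA expressed from the maternal chromosome. GAS5 and the SNHG genes carry snoRNAs, guides for RNA modification, in their introns, and their spliced transcripts are exported and known as targets of nonsense-mediated decay.

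RefSeq start-site windows (GRCh38.p14, 250 bases before to 50 after an annotated start) matched 8 of the 10 genes, with 11 windows. The host transcripts are known for beginning with a tract of C and T, as ribosomal protein mRNAs do, so their first 50 annotated bases are shown, with capitals for the unbroken run of C or T from the first base.
SNHG12, chr1:28581824-28581873, minus strand: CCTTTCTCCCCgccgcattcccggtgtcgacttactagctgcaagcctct
SNHG5, chr6:85678684-85678733, minus strand: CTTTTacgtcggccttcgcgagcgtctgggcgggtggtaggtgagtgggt
SNHG1, chr11:62855836-62855885, minus strand: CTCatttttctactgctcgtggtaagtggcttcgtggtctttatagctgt
GAS5, chr1:173868996-173869045, minus strand: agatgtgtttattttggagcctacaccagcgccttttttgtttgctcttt
The run was 11 bases at SNHG12, 5 at SNHG5, 3 at SNHG1 and 0 at the GAS5 start in this table. A run of at least 5 opened 5.17% of all 35116 windows, and a run of at least 11 opened 0.76%.

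The windows of MALAT1 (the downstream of its 2 annotated starts), SNHG12 and MEG3 are shown because these genes stood for the 3 patterns found below, higher, lower and near the bottom of the scale. Capitals mark a TATA-type motif, TATAAA or TATATAA, which do not overlap in these windows.
MALAT1, chr11:65498795-65499094, plus strand: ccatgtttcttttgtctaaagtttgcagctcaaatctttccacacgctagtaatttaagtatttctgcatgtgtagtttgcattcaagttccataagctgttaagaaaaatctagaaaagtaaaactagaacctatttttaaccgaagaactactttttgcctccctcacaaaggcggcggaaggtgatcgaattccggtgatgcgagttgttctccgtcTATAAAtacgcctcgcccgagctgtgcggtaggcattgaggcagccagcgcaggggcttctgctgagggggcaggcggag
SNHG12, chr1:28581824-28582123, minus strand: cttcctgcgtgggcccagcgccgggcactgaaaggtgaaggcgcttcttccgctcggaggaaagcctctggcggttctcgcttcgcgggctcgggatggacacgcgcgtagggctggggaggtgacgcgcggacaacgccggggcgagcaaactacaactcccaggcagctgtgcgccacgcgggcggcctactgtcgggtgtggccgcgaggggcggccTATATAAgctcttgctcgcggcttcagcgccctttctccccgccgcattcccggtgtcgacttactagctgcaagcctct
MEG3, chr14:100825858-100826157, plus strand: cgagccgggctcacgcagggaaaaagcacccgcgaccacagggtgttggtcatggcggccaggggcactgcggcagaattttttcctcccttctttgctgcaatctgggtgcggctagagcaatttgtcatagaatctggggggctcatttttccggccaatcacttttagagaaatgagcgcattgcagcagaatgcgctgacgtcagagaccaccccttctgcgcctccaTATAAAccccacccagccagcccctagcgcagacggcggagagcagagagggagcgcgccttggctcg
Read on both strands, TATAAA lay in 11.5% of all windows, and among the matched genes in at least 1 window each of MALAT1, MEG3 and SNHG1 (5 of the 11 member windows). TATATAA lay in 2.57% of all windows and in those of SNHG12 and SNHG5. CCAAT (34.6% of all windows) lay in windows of GAS5, SNHG5, MEG3 and NONO, and GGGCGG (45% of all windows) in windows of MALAT1, SNHG1, SNHG5 and SNHG12. All 3 overlapping MEG3 windows held TGACGTCA, the cyclic AMP response element, which 1.85% of all windows hold.

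The values are intensities on a linear scale, and changes are differences of log2(intensity + 9.05), an offset that makes changes of dim probe sets smaller. Precision is limited by how few arrays there are. Probe sets whose mean log2 value reached the median of all such means (5.19) were tested, 27307 in all. All 26 tested probe sets of a single member symbol belong to MALAT1, GAS5, SFPQ, NONO and PSPC1, no MEG3 probe set was kept, and all 17 jointly annotated ones were kept. Array medians lay between 26.7 and 33.7. The 3' to 5' ratio of the ACTB control probe sets, a measure of RNA integrity and labelling, was 1.57 to 1.67 on the arrays numbered 2 and 1.44 to 1.52 on those numbered 1, and that of GAPDH was 1.13 to 1.17 and 1.03 to 1.16. Of 12 kidney and epithelial marker genes on the array, 8 reached the filter, among them PAX8 (148 to 287), WT1 (142 to 235) and KRT18 (1149 to 1356), while CDH16 lay between 1.54 and 8.02. Of the 5 blood markers 2 reached the filter, CD3E (6.30 to 57.1) and HBB (34.9 to 86.9), while the defining PTPRC and CD14 stayed at or below 17.7. Of the 4 endothelial markers PECAM1 did (7.50 to 60.9), while CDH5 stayed at or below 5.21, and of the 5 fibroblast markers COL1A1 did (87.2 to 166). The summed level of 5 blood markers was 81.5 to 145 on the arrays numbered 2 and 124 to 136 on those numbered 1. That of 5 fibroblast markers was 151 to 290 and 214 to 249, and that of 4 endothelial markers 52.7 to 91.3 and 33.6 to 79.5.

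The comparison of each construct with the empty vector asks whether nuclear RNAs or paraspeckle proteins differ when cells receive either form of IMP1. No member did so past the threshold. In hIMP1 wt minus mock, 0 of the 26 probe sets with a single symbol and 0 of the 17 jointly annotated ones were called (limma, Benjamini-Hochberg adjusted p = 1 for all), and none had an unadjusted p under 0.05. Of all 27307 probe sets, 0.00732% were called higher and 0% lower, and 1.03% had an unadjusted p under 0.05 (0.417% higher, 0.612% lower). In hIMP1 Dmut minus mock the member counts were again 0 of 26 and 0 of 17, none at an unadjusted p under 0.05, against 0.00732% called higher, 0% lower and 1.42% unadjusted (0.846% higher, 0.571% lower) over all probe sets. In hIMP1 Dmut minus hIMP1 wt they were 0 of 26 and 0 of 17, with 0% called over all probe sets and 1.23% unadjusted (0.861% higher, 0.374% lower). The groups hold 2 arrays each, and the median standard error of a construct change over all tested probe sets was 0.28 on the log2 scale. None of the changes given below passed the threshold at this precision. These fits leave out the number of the array, so differences between the numbers enter the standard errors. Whether the 2 arrays of a construct are separate cultures is not in the labels, and the p-values cover array-to-array spread alone, and that spread may be technical.

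MALAT1 at its brightest probe set, 1558678_s_at, had intensities of 800 and 3164 with hIMP1 wt (numbers 1 and 2), 1181 and 3489 with hIMP1 Dmut, and 1082 and 3449 with the empty vector. The 2 arrays of each construct lay further apart than the constructs did. Set against mock, hIMP1 wt gave a log2 change of -0.28 ± 0.69 (SE), followed by 0.07 ± 0.69 for hIMP1 Dmut minus mock and 0.35 ± 0.69 for hIMP1 Dmut minus hIMP1 wt. Within the arrays numbered 1 and 2 these were -0.43 and -0.12, 0.13 and 0.02, and 0.56 and 0.14. Over all 12 MALAT1 probe sets the change in hIMP1 wt ran from -0.38 to 0.40, positive at 2 of them, 223578_x_at (0.39) and 224559_at (0.40). With hIMP1 Dmut minus mock it ran from -0.31 to 0.75, positive at 7. Between the constructs it was positive at 11 of 12, the exception being 227510_x_at (-0.22). These probe sets carry the same symbol and are not independent readings.

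NEAT1 was read by jointly annotated probe sets, of which 234989_at was the brightest. It had 1182 and 1418 with hIMP1 wt, 1093 and 1755 with hIMP1 Dmut, and 884.5 and 1639 with the empty vector. The groups overlapped, and the changes were 0.10 ± 0.30 for hIMP1 wt minus mock, 0.20 ± 0.30 for hIMP1 Dmut minus mock and 0.10 ± 0.30 between the constructs. Over its 8 probe sets the change with hIMP1 wt ran from -0.26 to 0.35 and with hIMP1 Dmut from -0.19 to 0.38.

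MEG3 lay near the bottom of the scale. Its 10 probe sets read between 0.75 and 35.8 over all arrays, and none reached the filter, so no change was tested. At the brightest, 226211_at, the intensity was 19.7 and 3.53 with hIMP1 wt, 24.7 and 17.1 with hIMP1 Dmut, and 35.7 and 29.6 with the empty vector. At this level differences between arrays depend on the offset. The imprinted neighbours of MEG3, DLK1, RTL1 and DIO3, had no probe set with a single symbol above the filter either.

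The snoRNA hosts varied little between constructs. The brightest jointly annotated GAS5 probe set, 224741_x_at, had 3468 and 3501 with hIMP1 wt, 3749 and 2898 with hIMP1 Dmut, and 3470 and 3695 with the empty vector, with changes of -0.04 ± 0.18 and -0.12 ± 0.18 from mock. Over its 4 jointly annotated probe sets the change ran from -0.12 to 0.09 with hIMP1 wt and from -0.12 to -0.04 with hIMP1 Dmut. The only GAS5 probe set with a single symbol, 1560402_at, was dim at 32.6 to 53.6. The SNHG1 probe set had 2273 and 2672 with hIMP1 wt, 2607 and 2346 with hIMP1 Dmut, and 2435 and 2847 with the empty vector, changes of -0.10 ± 0.17 and -0.09 ± 0.17 from mock. The SNHG5 probe set had 6769 and 7795 with hIMP1 wt, 6419 and 7653 with hIMP1 Dmut, and 6848 and 8181 with the empty vector, changes of -0.04 ± 0.18 and -0.10 ± 0.18. At all 3 of these hosts the groups overlapped. SNHG12 at 223773_s_at had 833 and 554 with hIMP1 wt, 986 and 469 with hIMP1 Dmut, and 1198 and 477 with the empty vector, where again the number of the array separated the values and the construct did not. Over its 3 probe sets the change ran from -0.16 to -0.04 with hIMP1 wt and from -0.15 to 0.04 with hIMP1 Dmut.

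The brightest probe sets of the paraspeckle proteins were likewise close between constructs. SFPQ at 201586_s_at had 3190 and 2752 with hIMP1 wt, 3017 and 2305 with hIMP1 Dmut, and 3103 and 2594 with the empty vector, a change of 0.06 ± 0.19 for hIMP1 wt and of -0.11 ± 0.19 for hIMP1 Dmut. Over the 5 SFPQ probe sets the change ran from -0.26 to 0.28 with hIMP1 wt. With hIMP1 Dmut minus mock it ran from -0.11 to 0.47 and was positive at 4, the brightest alone being negative and the dim 226898_s_at the highest. Between the constructs it was positive at 3, the highest being 214016_s_at (0.44, against -0.17 at the brightest). NONO, which joins SFPQ in a dimer, had 6777 and 7555 with hIMP1 wt, 7542 and 6624 with hIMP1 Dmut, and 6596 and 7909 with the empty vector at 200057_s_at, changes of -0.01 ± 0.17 and -0.03 ± 0.17. Over its 3 probe sets the change ran from -0.01 to 0.05 with hIMP1 wt and from -0.22 to -0.03 with hIMP1 Dmut. PSPC1 at 226574_at stayed between 637 and 689 on all 6 arrays, with changes of -0.04 ± 0.17 and -0.02 ± 0.17. Its other probe sets spread more, from -0.57 to 0.14 over all 5 with hIMP1 wt and from -0.18 to 0.17 with hIMP1 Dmut. The lowest was the dim 226724_s_at, at -0.57 ± 0.43 for hIMP1 wt minus mock (-0.59 and -0.54 within the arrays numbered 1 and 2), which was not called.

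**Figure D1:**
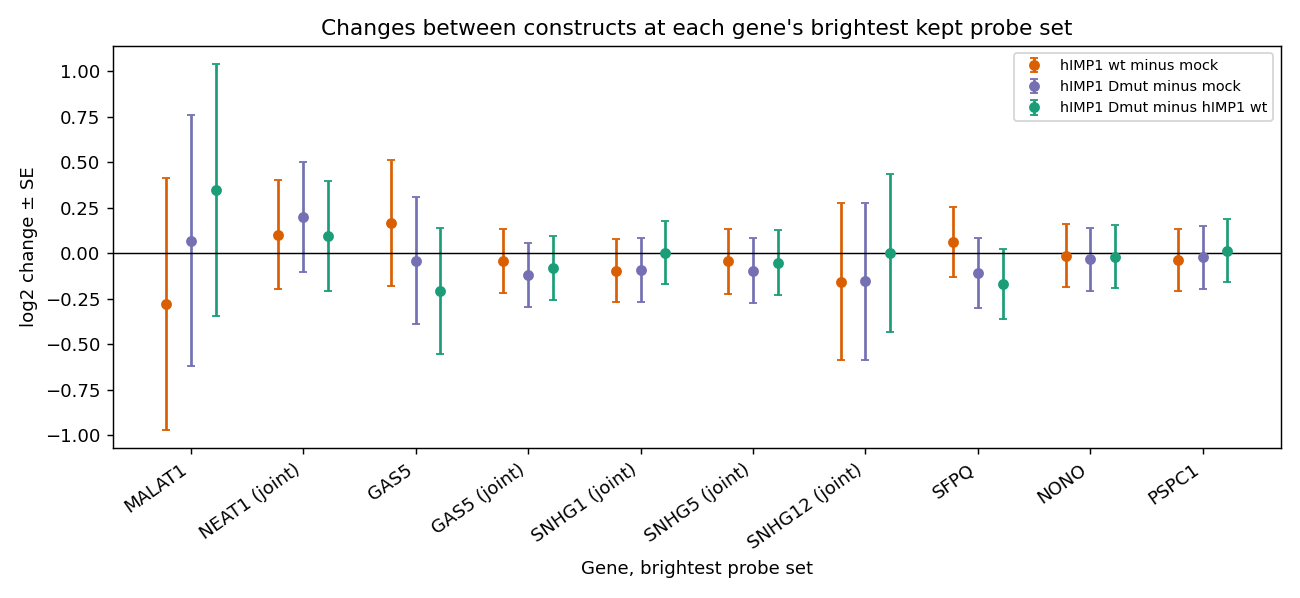
Log2 changes with standard errors (vertical axis) at each gene's brightest kept probe set (horizontal axis) for hIMP1 wt minus mock, hIMP1 Dmut minus mock and hIMP1 Dmut minus hIMP1 wt, from the limma fit of 6 arrays. The fit leaves out the number of the array. The widest error bars are those of MALAT1 (0.69), and no change passed the threshold.

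The number in the sample titles separated several members. The labels do not say what it stands for, and the comparison asks how the 3 arrays numbered 2 differ from the 3 numbered 1 with the construct held in the model. Here 10 of the 26 tested probe sets with a single member symbol were called higher on the arrays numbered 2 and 1 was called lower, where 2.81% of all 27307 were called higher and 2.9% lower (767 and 791), 5.71% in all. At an unadjusted p under 0.05 the members with a single symbol numbered 16 of 26, against 22.3% of all. Of the 17 jointly annotated ones, 3 were called higher and 2 lower. The median change over the 26 was 0.39 and over the 17 it was 0.08, against -0.02 over all tested probe sets. Because 9 of the 10 higher ones carry the MALAT1 symbol, the count is not one of separate genes. The genes were also chosen with earlier results of these data known, so the member counts beside the shares over all probe sets are a description. Over all probe sets 49.2% of the calls were upwards, which became 69.9% when arrays were scaled to a common median. Without the intensity trend in the variance estimate every call was lost, with 0 of 26, 0 of 17 and 0 of 27307 left (limma, 15, 5 and 5076 at an unadjusted p under 0.05). Leaving out either array of a construct takes the whole construct out of this comparison, because the array that remains has no partner. The 2 such fits of a construct give the same change and are not separate checks. The count of 1558 over all probe sets was 5472 and 5455 without hIMP1 Dmut replicate 1 or 2, 339 and 291 without hIMP1 wt replicate 1 or 2, and 558 and 507 without mock replicate 1 or 2, and the 11 member calls were 16 and 15, 8 and 6, and 10 and 9. The ACTB 3' to 5' ratio, given above, also differed between the numbers without overlap. So did the summed level of 3 neuronal-like genes known from embryonic kidney lines (1537 to 1646 on the arrays numbered 2 and 1237 to 1358 on those numbered 1). Most of that sum is NEFL (1080 to 1492 over all arrays), and NEFM did not reach the filter. The summed kidney and epithelial markers overlapped (2474 to 2615 and 2499 to 2757). The part of the ratio or of these genes in the differences was not tested.

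MALAT1 was higher on the arrays numbered 2. At 1558678_s_at all 3 arrays numbered 2 (3164, 3489 and 3449 for hIMP1 wt, hIMP1 Dmut and mock) lay above all 3 numbered 1 (800, 1181 and 1082). This is a log2 change of 1.73 ± 0.12 (SE), 3.32-fold on the offset scale, with an adjusted p of 7.97e-05 from limma, and it was 1.97 within hIMP1 wt, 1.56 within hIMP1 Dmut and 1.67 within the empty vector. Of the 12 MALAT1 probe sets 9 were called higher, the other 3 had changes of 0.52, 0.60 and 1.02, and the median of the 12 was 1.195. Besides the brightest, those called were 224567_x_at (1.52), 224559_at (1.40), 223940_x_at (1.38), 231735_s_at (1.28), 224568_x_at (1.23), 228582_x_at (1.16), 224558_s_at (0.90) and 223577_x_at (0.88). The brightest had an adjusted p of 0.165 without the intensity trend and was called under the other 13 settings run for it. The calls at 223577_x_at (without mock or hIMP1 wt replicate 2), 224558_s_at (without hIMP1 wt replicate 2) and 228582_x_at (without either hIMP1 wt array) were also lost with an array left out. At 9 of 12 the numbers did not overlap, all in the same direction, while 14.5% of all tested probe sets had all arrays numbered 2 above all numbered 1, and 29.3% did not overlap in either direction.

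The MALAT1 probe sets differed among themselves in single arrays. At 224559_at the intensities on the arrays numbered 2 were 611 with hIMP1 wt, 773 with hIMP1 Dmut and 215 with the empty vector, against 134, 173 and 217 on those numbered 1. The mock arrays were thus level there, while with the other 2 constructs the array numbered 2 was the higher (log2 change over all constructs 1.40 ± 0.31, adjusted p = 0.0262), a call lost under 5 of 14 other settings, namely without either hIMP1 wt array, the filter or the trend, and with a robust prior. At 226675_s_at hIMP1 Dmut number 2 had 1641 and the other 5 arrays 281 to 505, and the change of 1.02 ± 0.33 was not called (adjusted p = 0.0894). The brighter 224567_x_at also had its highest value on hIMP1 Dmut number 2 (2325), with 1338 and 1423 on the other arrays numbered 2 and 443 to 694 on those numbered 1. Which part of the RNA each probe set reads is not given in the sources used here.

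**Figure D2:**
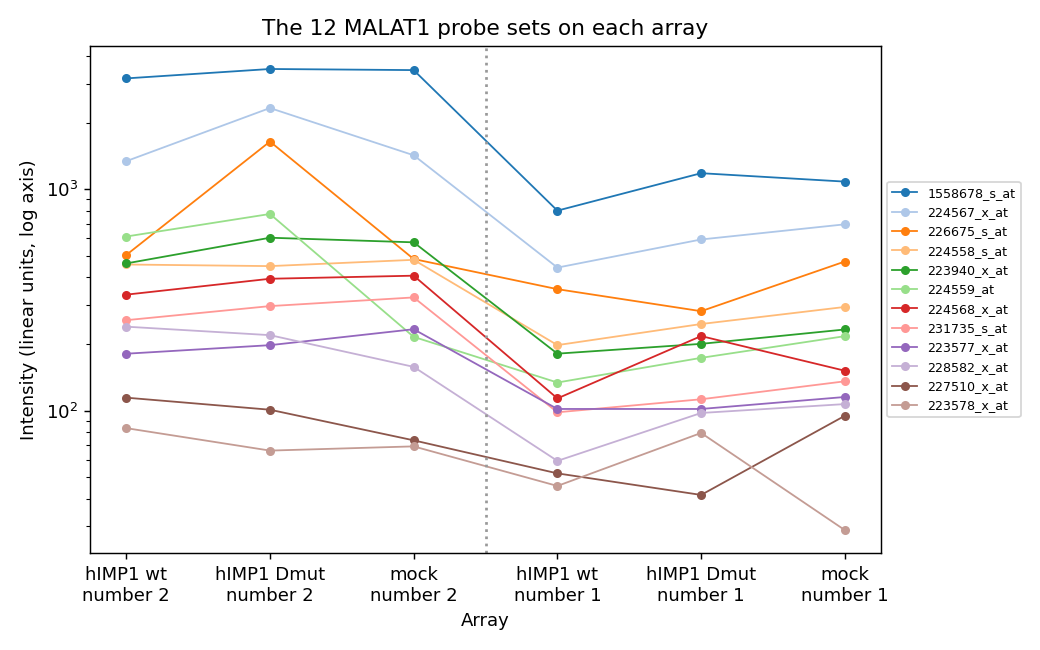
Intensity (vertical axis, log scale) of the 12 MALAT1 probe sets (coloured lines, which join the values of a probe set) on the 6 arrays, those numbered 2 left of the dotted line. The brightest probe set lies between 3164 and 3489 on the left and between 800 and 1181 on the right, and 224559_at on the mock array numbered 2 (215) stays at its level on the right.

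NEAT1 signal was higher on the same arrays, by less. The probe set 234989_at had 1418, 1755 and 1639 on the arrays numbered 2 (hIMP1 wt, hIMP1 Dmut and mock) and 1182, 1093 and 884.5 on those numbered 1, a change of 0.61 ± 0.13 (limma, adjusted p = 0.0226). A further 2 were called, 224565_at (0.63 ± 0.11, adjusted p = 0.0122) and 224566_at (0.70 ± 0.12, adjusted p = 0.00876). All arrays numbered 2 lay above those numbered 1 at 5 of the 8 probe sets, against 14.5% of all tested probe sets. The 8 carry the same symbols and are not independent readings. Their change ran from -0.02 at the dim 239269_at to 0.70, with a median of 0.51. The call at 234989_at was lost without mock replicate 1 or mock replicate 2 (change 0.47, adjusted p up to 0.19) and without the filter (adjusted p = 0.0552), that at 224565_at without either hIMP1 wt array, and that at 224566_at without mock replicate 2. All 3 were lost without the intensity trend, and the mean of all NEAT1 probe sets had a change of 0.39 that was not called (adjusted p = 0.125).

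SNHG12 went the other way. The jointly annotated 223773_s_at had 554, 469 and 477 on the arrays numbered 2 and 833, 986 and 1198 on those numbered 1 (hIMP1 wt, hIMP1 Dmut and mock in both), a change of -0.98 ± 0.14 (limma, adjusted p = 0.00431). A second probe set, 223774_at, had 254, 262 and 219 against 450, 488 and 553 and a change of -0.99 ± 0.14 (adjusted p = 0.0039). Both were called under 13 of 14 other settings and lost without the intensity trend (adjusted p = 0.167 at 223773_s_at). The third, 228990_at, had a change of -0.045 ± 0.18 and overlapping numbers. The other hosts were not called: SNHG5 had a change of 0.24 ± 0.12 (adjusted p = 0.258) with all arrays numbered 2 above those numbered 1, SNHG1 of 0.10 ± 0.12 (adjusted p = 0.657), and the brightest GAS5 probe set of -0.09 ± 0.12 (adjusted p = 0.715). Of these start sites, that of SNHG12 has the run of 11 bases of C or T shown above, and that of SNHG5 a run of 5. Whether the runs bear on these changes was not tested.

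The probe sets of the paraspeckle proteins disagreed with each other. PSPC1 was level at 226574_at (0.004 ± 0.11), while 218371_s_at had 105, 164 and 124 on the arrays numbered 2 and 236, 234 and 245 on those numbered 1 (hIMP1 wt, hIMP1 Dmut and mock), a called change of -0.84 ± 0.17 (adjusted p = 0.0169). The dimmer 222612_at and 226724_s_at had changes of -0.89 ± 0.30 (adjusted p = 0.104) and -0.73 ± 0.28 (adjusted p = 0.139), and 4 of the 5 PSPC1 probe sets had all arrays numbered 2 below those numbered 1, against 14.8% of all tested probe sets. SFPQ had negative changes at 4 probe sets, from -0.47 to -0.29, none called, and a called positive one at 221768_at, with 448, 440 and 370 on the arrays numbered 2 and 346, 247 and 282 on those numbered 1 (0.52 ± 0.14, adjusted p = 0.0475). Of the negative ones 201585_s_at lay just short of the threshold (-0.418 ± 0.115, limma adjusted p = 0.054). It was called with quantile scaling and with a robust prior, and not with median scaling or without the trend. The call at 221768_at was lost under 9 of 14 other settings, quantile scaling among them, and that of PSPC1 at 218371_s_at was lost under 5 of 14, without either mock array, either hIMP1 wt array or the trend, at changes between -0.71 and -1.02 over all settings. NONO, the partner of both proteins, had changes of 0.08, -0.04 and -0.23 at its 3 probe sets, none called (adjusted p of at least 0.277).

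**Figure D3:**
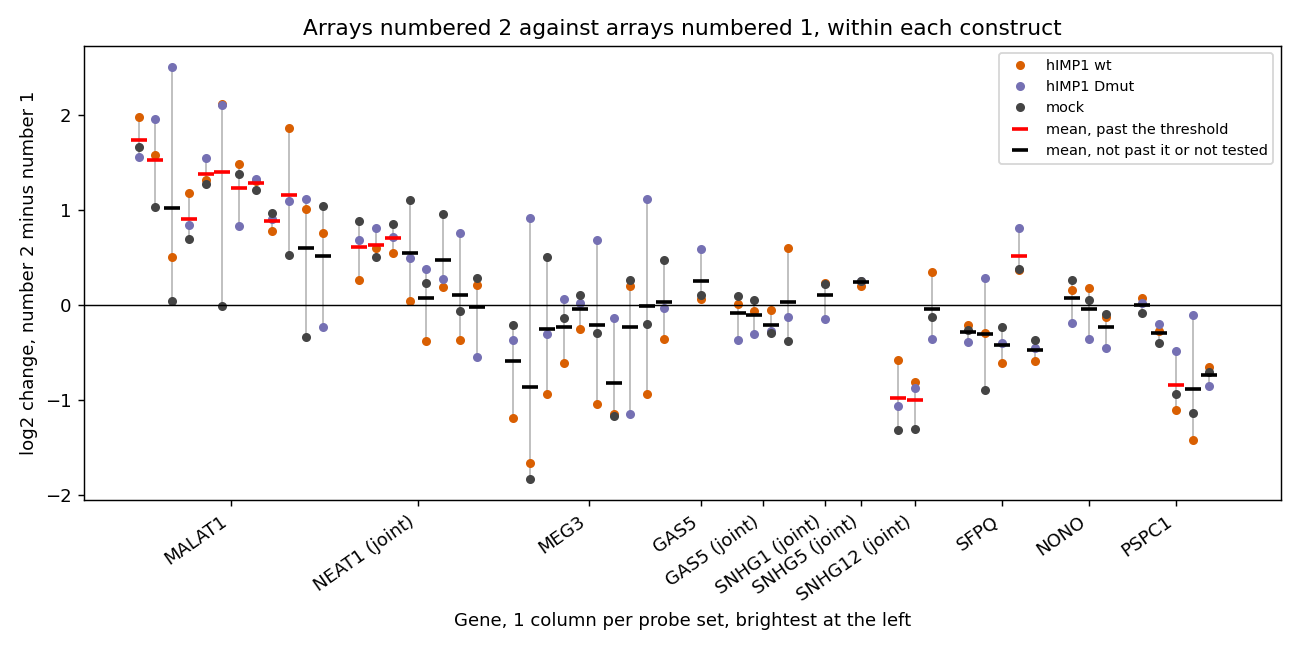
Log2 change of the arrays numbered 2 against those numbered 1 (vertical axis) for the 53 counted probe sets, grouped by gene, with 1 point for each construct and a bar for their mean, red where it passed the threshold. MALAT1 bars lie between 0.52 and 1.73, those of the lower 2 SNHG12 probe sets at -0.98 and -0.99, and SFPQ and PSPC1 probe sets of a gene lie on both sides of 0 or far apart.

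**Figure D4:**
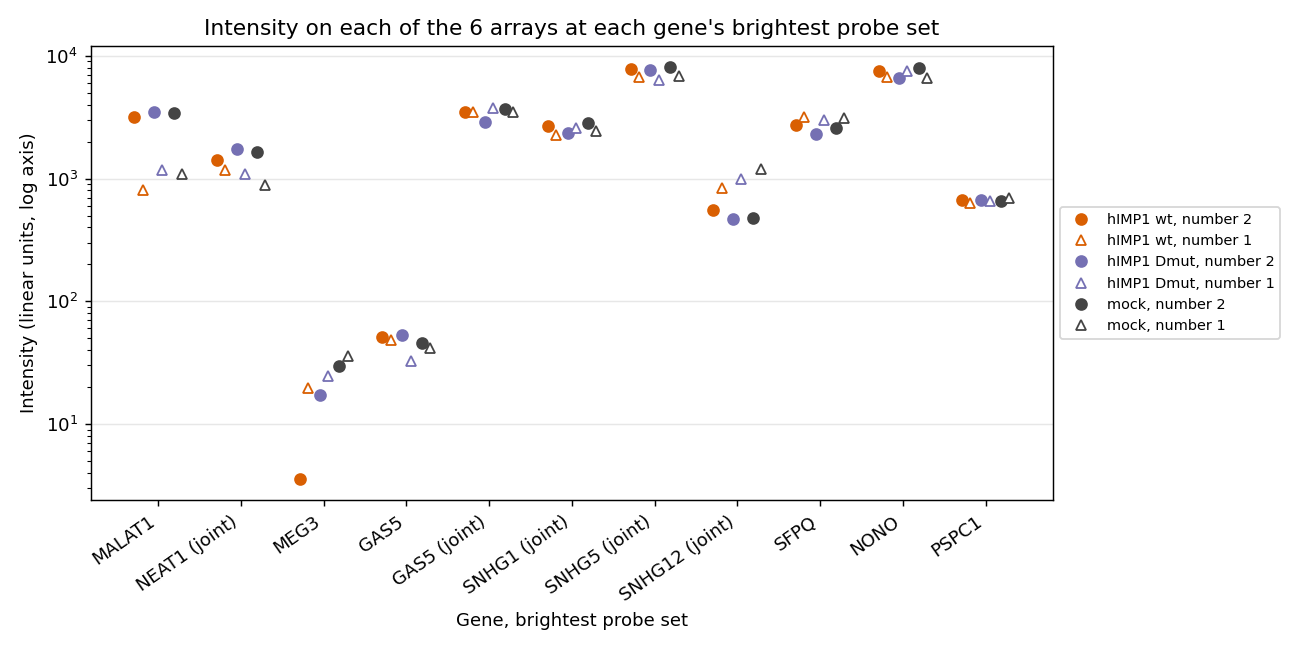
Intensity on each array (vertical axis, log scale) at each gene's brightest probe set, hIMP1 wt, hIMP1 Dmut and mock from left to right within a gene, with filled circles for arrays numbered 2 and open triangles for those numbered 1. Circles stand above all triangles for MALAT1, NEAT1 and SNHG5 (the last not called) and below them for SNHG12 and SFPQ, and PSPC1 stays between 637 and 689.

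The profiles most like those of the members over the 6 arrays were found by the root mean square difference of log2 values, each centred on its own mean. For MALAT1 they were SNCAIP (0.16), TSC22D3 (0.20) and FAT3 (0.26), against a median of 0.89 over all genes. For the brightest NEAT1 probe set they were JAKMIP2 (0.07), ADAM22 (0.07) and VEGFA (0.07), against 0.38. SFPQ at its brightest probe set was nearest to RAB18 (0.02), DERL2 (0.03) and NOL10 (0.03), against 0.27, and the dim GAS5 probe set nearest to DNM3 (0.03) and PCDH9 (0.04), against 0.27. With 6 arrays and 12269 genes near matches arise readily, and these values are a description.

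Other genes of the same nuclear bodies and RNA classes were taken at their brightest tested probe set with a single symbol. None was called in any of the 3 construct comparisons (limma, adjusted p = 1), where 0.00815% of 12269 genes were called higher against mock for each construct, 0% lower, and 0% either way between the constructs. TAF15, an RNA-binding protein found in paraspeckles, is given because its change between the constructs was the largest for its standard error among the measured genes of these lists. It had 300 and 212 with hIMP1 wt, 540 and 570 with hIMP1 Dmut, and 523 and 432 with the empty vector. Both hIMP1 wt arrays were the lowest, with a change of 1.11 ± 0.22 for hIMP1 Dmut minus hIMP1 wt that did not pass (adjusted p = 1).

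Between the numbers, 3.71% of the 12269 genes were called higher on the arrays numbered 2 and 2.49% lower, with a median change of 0.02. Of 43 measured other paraspeckle proteins (47 listed), 3 were called higher and 6 lower, with a median of -0.11. The higher ones were CIRBP, a cold-inducible RNA-binding protein (0.44 ± 0.11), and the transcription factors BCL6 (0.74 ± 0.18) and BCL11A (0.55 ± 0.12). The lower ones were AKAP8L (-1.15 ± 0.14, adjusted p = 0.0017), RBM3, the other cold-inducible RNA-binding protein (-0.73 ± 0.13), SFMBT1 (-0.67 ± 0.15), HNRNPF (-0.52 ± 0.12), RBM12 (-0.44 ± 0.11) and PUF60 (-0.44 ± 0.11).

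Of the other snoRNA hosts 9 of 26 were measured, with 0 called higher and 2 lower and a median of -0.23. SNHG17 had 714, 767 and 751 on the arrays numbered 2 (hIMP1 wt, hIMP1 Dmut and mock) and 1462, 1763 and 1571 on those numbered 1 (-1.09 ± 0.11, adjusted p = 0.000532), and SNHG32 had a change of -0.44 ± 0.11 (adjusted p = 0.0373). Of 12 measured other long non-coding RNAs (25 listed) 2 were called higher and 0 lower, with a median of 0.12. OIP5-AS1 had 973, 977 and 1024 on the arrays numbered 2 and 607, 617 and 483 on those numbered 1 (0.80 ± 0.12, adjusted p = 0.00579), and HOTAIR had a change of 0.71 ± 0.18 (adjusted p = 0.0363). Of 26 measured nuclear speckle proteins (28 listed) 1 was called higher, PNISR (0.75 ± 0.12), and 1 lower, the splicing factor U2AF2 (-0.69 ± 0.11), with a median of -0.16. Of 8 measured nonsense-mediated decay factors (15 listed) none was called, with a median of -0.13. Scaling the arrays to a common median moved the median of all probe sets in this comparison to 0.09, against -0.02 as reported. These lists describe the genes named and were not tested as sets.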

How the data were processed

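The authors deposited 1 linear intensity for each probe set on each array. How they computed and scaled it is not given. The mean after trimming 2% off each end was 149.98 on every array. Groups came from the sample descriptions and numbers from the titles. The 62 control probe sets were left out. Of the other 54613, 41091 had 1 symbol in the platform annotation, 1801 several and 11721 none. No coordinates of probe sets are given, since the files name no build.

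Groups were compared on log2(intensity + 9.05), the offset being the pooled lower quartile, with limma 3.58.1 in R 4.3.3 (lmFit, eBayes with an intensity trend, two-sided, threshold 0.05 after Benjamini-Hochberg adjustment over 27307 probe sets). A coefficient per construct left 3 residual degrees of freedom. The comparison of the numbers added a coefficient for the number, which left 2. Each gene is given at its brightest kept probe set, further ones by range, and one by one where called or where they went the opposite way by over 0.5. Members and lists were chosen with earlier results of these data known, and the jointly annotated probe sets were set apart after the annotation was read. The fit was tested on simulated data. Figures were drawn with matplotlib 3.10.9.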

Additional observations from a re-analysis of the deposited data

How the results depend on the processing

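In the 3 construct comparisons the count of called member probe sets was 0 under every alternative run, the fit with the replicate block included. Over all probe sets the hIMP1 wt count of 2 became 1 with an offset at the 10th percentile or a filter at the 75th percentile, 0 with only the 4 arrays compared or no intensity trend, and 0 to 3 with an array left out. The hIMP1 Dmut count of 2 became 1 with the stricter filter, 0 without the trend, and 0 to 2 with an array left out. The replicate block called 2, 2 and 0 probe sets in the 3 comparisons, as did the fit without it, and the constructs' differences between the numbers were correlated across 27307 probe sets (r = 0.46, 0.20 and 0.22), which the labels do not explain. At an unadjusted p under 0.05 (limma) the block gave 0, 0 and 3 of the 26, and 0 jointly annotated probe sets in each comparison. Over all 27307 probe sets it gave 705, 1134 and 870. The 3 were not sorted by gene, so they may not be separate readings, and none was called. Of 178 recomputed values of single genes in each construct comparison, 25, 23 and 23 changed sign, none of them called. In the comparison of the numbers, the 11 called member probe sets became 0 of 26 without the intensity trend, where all 1558 calls were lost (limma, 5076 at an unadjusted p under 0.05, 15 of them members with a single symbol). The alternative without the trend estimates a single prior variance, and the cause of the loss was not tested. With an array left out the member count was 6 (without hIMP1 wt replicate 2) to 16 (without hIMP1 Dmut replicate 1), and the count over all probe sets 291 to 5472 for the same 2 arrays, and without a filter it was 558. The change of MALAT1 at 1558678_s_at lay between 1.61 and 1.84 in 14 fits of that probe set and was called in 13, at 1.14 with the mean of all MALAT1 probe sets. That of SNHG12 at 223773_s_at lay between -1.18 and -0.82 and was called in 13 of 14. SFPQ at 201586_s_at passed under quantile scaling (-0.37, limma adjusted p = 0.0303) and without either hIMP1 Dmut array (-0.235), and the sign turned with the brightest probe set not ending in _x_at or _s_at (0.52). The fits of this comparison with an array left out come in pairs, since either array of a construct gave the same change, and are not separate checks. Median scaling moved the median of all changes between the numbers to 0.09.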

Other observations

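The probe set 220983_s_at, labelled NEAT1 and MIR612 but with an accession of SPRY4, read between 2.18 and 13.5 on the 6 arrays and did not reach the filter. With hIMP1 Dmut it read 13.5 on the array numbered 2 and 2.18 on the array numbered 1.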
